A study of Drosophila melanogaster with 4 samples.

Results

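5 enzymes of fatty acid and acyl-CoA metabolism were followed in head RNA of Drosophila melanogaster males fed strychnine. They are Acadvl (CG7461), Acox3 (CG9527), Acsf2 (CG12512), Acsx3 (CG11407) and Acat2 (CG9149). Their spots were found by name and not by value: each spot whose only symbol in the platform annotation was one of these 5 was used. The genes themselves were chosen with earlier results of these data known. They are 5 of the 2664 named genes with a value on at least 1 array, out of 6793 named genes spotted. Each was printed as 2 neighbouring spots, and all 5 had a value in each distinct set of array values.

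Fatty acids are used by the cell only after acyl-CoA synthetases have joined them to coenzyme A. Acyl-CoAs are then shortened by beta-oxidation, which starts with an acyl-CoA dehydrogenase in mitochondria and with an acyl-CoA oxidase, a source of hydrogen peroxide, in peroxisomes. Thiolases catalyse the last step of each round, and the biosynthetic thiolases run the reaction the other way and join acetyl-CoA units. In the fly head, fat body and glia are known sites of lipid storage and use.

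Strychnine, a plant alkaloid that blocks vertebrate glycine receptors, was given to unmated Oregon-R males, a wild-type strain, aged 3 to 4 days at the start. The treated flies ate food with 3.33 mg/ml of the drug for 7 days, and controls of the same strain, sex and age ate the same food without it. Vials held 30 flies each, heads were pooled, and 4 two-colour cDNA arrays each set a treated pool against a control pool of the same biological replicate. Cy5 marked the treated RNA on replicates 1 and 2, and Cy3 marked it on replicates 3 and 4.

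Between 7647 and 9725 of 27648 spots held a log2 ratio on an array. Replicates 1 and 3 held the same number at 7643 of 7643 spots measured on both, while the labels give them opposite dyes. Since they did not differ at any of these spots, they were counted as 1 sample, called the shared set, which leaves 3 sets. After each set was centred on its median, 4002 units (2027 named genes and 1975 unnamed spot pairs) had a value in all 3. The number of arrays limits the precision, and the brightness behind a ratio was not used here. Heads are mixed tissue, so fewer cells of a type and less RNA per cell cannot be told apart.

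The sources used here do not say whether a positive value means more treated RNA, more control RNA or more Cy5. Sample titles name Nm before STR, without saying which is the numerator. Each gene is therefore given in both of the readings below. Control over treated, which is also possible, would reverse every sign of the first reading. Should the values be treated over control throughout, the effect of strychnine is their mean over the 3 sets. If they are Cy5 over Cy3, it is the dye-turned contrast, the difference between replicates 2 and 4 divided by 2, to which the shared set adds only information on the spread. The labels of the shared set disagree on the dye, so it was given no sign. In that reading any strychnine effect it holds is counted as spread, which enlarges the SE and the p-values. Both readings were fitted with limma over all 4002 units, two-sided, with Benjamini-Hochberg adjustment and a threshold of 0.05.

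None of the 5 genes passed in either reading. In the mean of the sets 10.6% of all units passed (8.6% positive and 2.02% negative), and in the dye-turned contrast 0% did by limma, with 158 units at an unadjusted p under 0.05. None of the 5 had the same sign in all 3 sets either, against 55.5% of all units, 27% negative in each. Means of the 5 genes ran from -0.414 for Acox3 to 0.312 for Acadvl on the centred log2 scale. All lay between the 10th and the 90th percentile of units, which were -0.659 and 0.854. Without centring, where the median of all units was -0.399, the means of all 5 were negative, from -0.787 for Acox3 to -0.0618 for Acadvl.

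**Figure D1:**
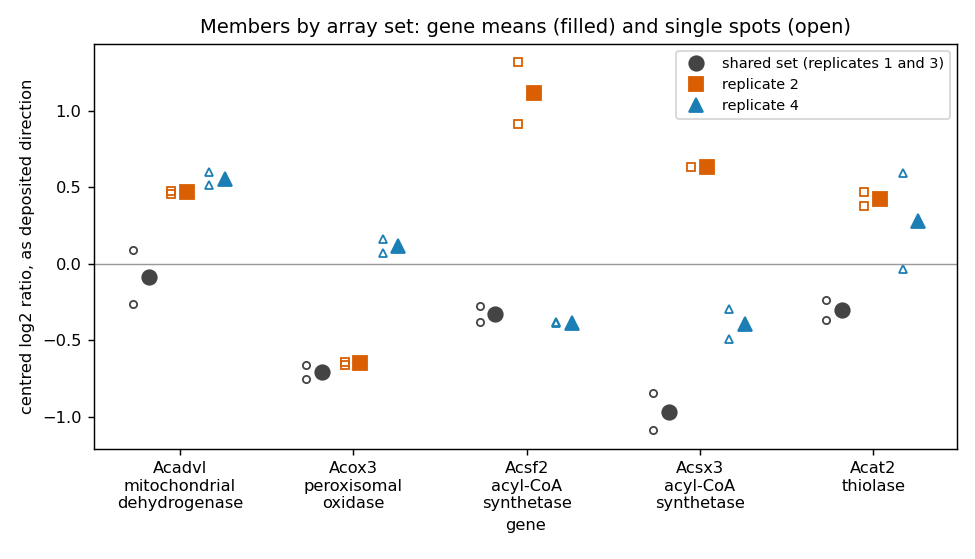
Centred log2 ratio (vertical axis, in the deposited direction) of the 5 genes in the shared set, replicate 2 and replicate 4. Filled symbols are gene means, open symbols single spots. Acsf2 stands at 1.115 on replicate 2 and below -0.3 in the other sets, and the 3 sets lie on both sides of 0 for each gene.

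Acadvl is named for very-long-chain acyl-CoA dehydrogenase, the enzyme that opens mitochondrial beta-oxidation of long chains. The shared set gave a centred log2 ratio of -0.087, replicate 2 one of 0.466 and replicate 4 one of 0.556. Replicates 2 and 4 were thus positive and close to each other, while the shared set lay near 0. The mean was 0.312 ± 0.348 (SD, n = 3 sets), a ratio of 1.24 with a limma 95% interval from 0.873 to 1.77 (adjusted p = 0.340 by limma). It was 0.1895 without replicate 4 and 0.511 without the shared set. Because replicates 2 and 4 carried opposite dyes and had the same sign, the dye-turned contrast was close to 0, at -0.045 ± 0.282 (SE; limma adjusted p = 0.993). Its duplicate spots differed by 0.023 on replicate 2 and 0.084 on replicate 4, and by 0.350 in the shared set. For all duplicate pairs the median difference was 0.138 to 0.168, so the spots of Acadvl agreed more closely than that on replicates 2 and 4 and less closely in the shared set.

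Acox3 encodes a member of the peroxisomal acyl-CoA oxidase family. Its values were -0.706 and -0.651 for the shared set and replicate 2, and 0.116 for replicate 4. The first of these values lay above only 7.60% of units in that set and the second above 20.6%, whereas replicate 4 stood at 58.4%. Acox3 had the lowest mean of the 5 genes, -0.414 ± 0.459 (SD, n = 3 sets), a ratio of 0.751 with an interval from 0.512 to 1.10 (limma adjusted p = 0.2496). With quantile normalization, which moved the median of all units to -0.403, it passed at -0.792 (limma adjusted p = 0.0435), or -0.389 relative to that median. Without replicate 4 the mean was -0.678 (limma adjusted p = 0.108), and without the shared set -0.2675. After turning for dye, replicates 2 and 4 were both negative, at -0.651 and -0.116. The dye-turned contrast was -0.383 ± 0.264 (SE; limma adjusted p = 0.967). Duplicate spots of Acox3 differed by at most 0.094 in any set.

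Acsf2 is named for an acyl-CoA synthetase that in mammals is mitochondrial and acts on medium chains. Replicate 2 read 1.115, while the shared set and replicate 4 read -0.327 and -0.385. Replicate 2 stood apart, above 95.5% of units, and the other sets were alike at 27.2% and 25.2%. The mean was 0.134 with the widest SD of the 5 genes, 0.850 (n = 3 sets; limma adjusted p = 0.791). Without replicate 2 the mean was -0.356, so that array decides its sign. Read as Cy5 over Cy3, both arrays gave more treated RNA, 1.115 on replicate 2 and 0.385 on replicate 4. The contrast of 0.750 ± 0.295 (SE) was the largest of the 5 genes in size and exceeded that of 96.3% of units. Its unadjusted p was 0.0467 and its limma adjusted p 0.967, so it did not pass. The spots of Acsf2 on replicate 2 differed by 0.401, within the 95th percentile of 0.681 for duplicates on that array.

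Acsx3 belongs to a group of Drosophila genes named as acyl-CoA synthetases, whose substrates are left unnamed here. The shared set read -0.966 and replicate 4 read -0.396, while replicate 2 read 0.634. Only 2.20% of units were lower in the shared set, while 80.4% were lower on replicate 2, where a single spot carried the value. The mean was -0.243 ± 0.811 (SD, n = 3 sets; limma adjusted p = 0.611). It was 0.119 without the shared set and -0.681 without replicate 2 (limma adjusted p = 0.255). After turning, replicates 2 and 4 were both positive, at 0.634 and 0.396, with a contrast of 0.515 ± 0.359 (SE; limma adjusted p = 0.967). A spotted cDNA may also bind transcripts of related synthetase genes, which was not tested.

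Acat2 is named for acetyl-CoA acetyltransferase, a thiolase that in mammals is cytosolic and makes acetoacetyl-CoA for the mevalonate pathway. Replicates 2 and 4 read 0.422 and 0.279, and the shared set -0.301. The order of the sets resembled that of Acadvl, with the shared set lowest. The mean was 0.133 ± 0.383 (SD, n = 3 sets), a ratio of 1.10 with an interval from 0.764 to 1.57 (limma adjusted p = 0.697). The dye-turned contrast was 0.072 ± 0.289 (SE; limma adjusted p = 0.991), with opposite signs on the turned arrays. On replicate 4 the spots of Acat2 read -0.035 and 0.592 after centring, a gap of 0.627 that is wider than the distance from replicate 4 to replicate 2.

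**Figure D2:**
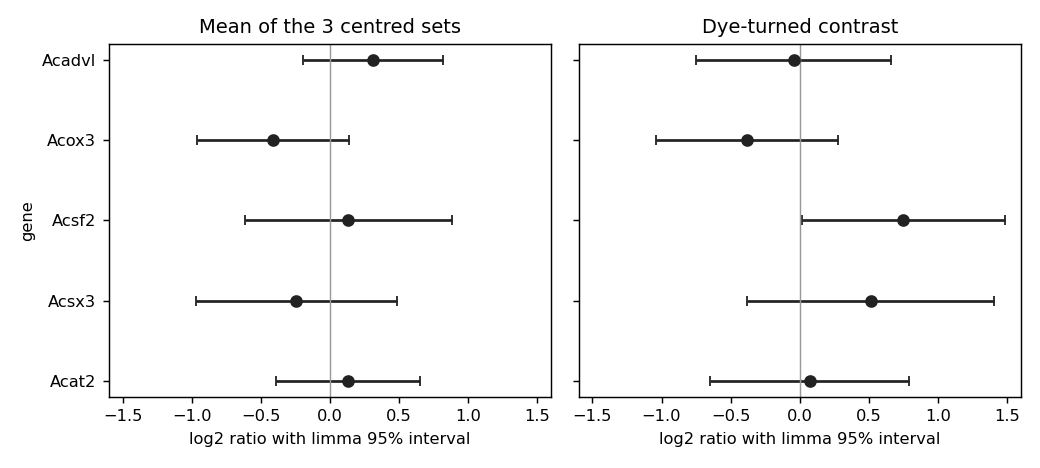
Estimated log2 ratio of the 5 genes (dots) with limma 95% intervals (bars), as the mean of the 3 centred sets (left) and as the dye-turned contrast (right). Every interval on the left spans 0, and on the right only that of Acsf2, from 0.0155 to 1.48, does not, before adjustment over the 4002 units.

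After turning, 3 of the 5 genes had the same sign on replicates 2 and 4, Acsf2 and Acsx3 positive and Acox3 negative, where 30.6% of all units did (15.9% positive and 14.6% negative). The synthetases and the oxidase thus lay on opposite sides of 0 in that reading, and the dehydrogenase and the thiolase on neither. In the other reading Acadvl, Acat2 and Acsf2 had positive means and Acox3 and Acsx3 negative ones. Both orders come from the same arrays.

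The roles were compared directly by subtracting 2 genes on the same array, first in the deposited direction. Mitochondrial Acadvl lay above peroxisomal Acox3 by 0.619, 1.12 and 0.441 in the shared set, replicate 2 and replicate 4. The mean difference was 0.725 ± 0.350 (SD, n = 3 sets), in the same direction in 3 of 3 sets. The exact two-sided sign-flip permutation test gave p = 0.25, the smallest that 3 sets allow, and 0.625 adjusted over the 10 pairs, so no pair could pass. Acat2 lay above Acox3 in 3 of 3 sets as well, by 0.547 ± 0.471 (SD, n = 3 sets). The synthetases differed from each other by 0.377 ± 0.327 (SD, n = 3 sets), with Acsf2 above Acsx3 by 0.639 in the shared set and by only 0.011 on replicate 4. Acadvl exceeded Acat2 by 0.178 ± 0.121 (SD, n = 3 sets). In this direction these 4 of the 10 pairs kept one sign, and the other 6 changed sign between sets. Comparisons of a synthetase with Acox3 were the most variable, with SDs of 1.14 for Acsf2 and 0.972 for Acsx3, since Acsf2 and Acsx3 were high and Acox3 low on replicate 2.

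After turning for dye the tally is the other way round, with values on replicates 2 and 4 only and therefore no test. Turning reverses the sign of replicate 4, so this tally follows from the values above and is no separate result. The 4 pairs above then differed in sign between the arrays: Acadvl lay above Acox3 by 1.12 on replicate 2 and below it by 0.441 on replicate 4. The 6 other pairs, each a synthetase against one of the remaining genes, kept one sign, with the synthetase higher on both arrays. The contrast of Acox3 minus Acsf2 was -1.133, that of Acox3 minus Acsx3 -0.898, and that of Acadvl minus Acsf2 -0.795. After the position correction described next, the synthetases lay above Acox3 on both arrays, but above Acadvl and Acat2 on replicate 4 only. On replicate 2 Acadvl and Acat2 then stood at 0.531 and 0.617, above Acsf2 at 0.440 and Acsx3 at 0.125. The corrected dye-turned contrast of Acat2, 0.286, also exceeded the 0.218 of Acsf2.

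Position on the slide moved with several of these values. The spots were read as 48 blocks, and differences between blocks made up 21.0%, 30.0% and 21.6% of the spot variance of the shared set, replicate 2 and replicate 4. Acsf2 and Acsx3 share block 2, whose median on replicate 2 was 0.597, the fourth highest of the 48. In the same block the median was -0.0795 in the shared set and -0.212 on replicate 4, so the block, like both genes, was highest on replicate 2. Acox3 lies in block 32, whose median on replicate 2 was -0.716, lower than the gene itself. Blocks of Acadvl and Acat2 had medians of -0.148 and -0.328 on replicate 2, where both genes were positive.

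With block medians and a smooth surface within the block subtracted, Acsf2 on replicate 2 went from 1.115 to 0.440, and on replicate 4 from -0.385 to 0.00368. Its dye-turned contrast became 0.218 ± 0.194 (SE; limma adjusted p = 0.991). Acsx3 on replicate 2 went from 0.634 to 0.125, while its low value in the shared set remained, at -1.13. The mean of Acsx3 was then -0.538 ± 0.631 (SD, n = 3 sets; limma adjusted p = 0.312). In the shared set Acsx3 lay above only 1.37% of the spots of its own block. Acox3 came closer to 0, at -0.327, -0.125 and 0.231 in the shared set and on replicates 2 and 4, with a mean of -0.0735 ± 0.283 (SD, n = 3 sets). Before the correction 28.5% of all units were positive in all 3 sets, and the share after it is not given here. Acadvl was the 1 gene of the 5 that was positive in all 3 corrected sets, at 0.112, 0.531 and 0.395. Its mean of 0.346 ± 0.214 (SD, n = 3 sets) had a limma adjusted p of 0.246, and 0% of all units passed after this correction, with 835 at an unadjusted p under 0.05. Acat2 stood at -0.0261, 0.617 and 0.0444, a mean of 0.212 ± 0.352 (SD, n = 3 sets; limma adjusted p = 0.535). The difference between Acadvl and Acox3 was 0.420 ± 0.246 (SD, n = 3 sets) on this scale.

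**Figure D3:**
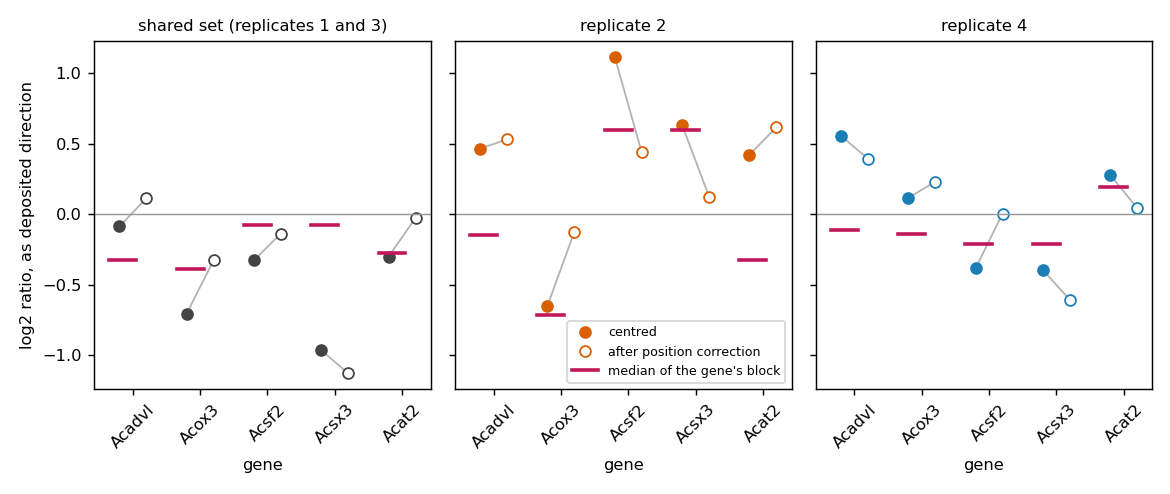
Log2 ratio of each gene (vertical axis) in the 3 sets, centred (filled) and after the position correction (open), with the median of the gene's block as a bar. On replicate 2 Acsf2 and Acsx3 move from 1.115 and 0.634 to 0.440 and 0.125, and in the shared set Acsx3 stays at -1.13.

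Acadvl, Acat2 and Acsx3 had no value on replicate 3, although replicate 1 held the same data for other spots. This was so for 1713 (18.3%) of the spots with a value on replicate 1. Spots of that kind had higher ratios in general, with medians of 0.405, 0.357 and 0.305 in the shared set, replicate 2 and replicate 4, against -0.058, -0.0995 and -0.094 for spots with both. In the shared set the 3 genes did not follow this, at -0.087, -0.301 and -0.966. On replicate 2 all 3 lay above the median of such spots, at 0.466, 0.422 and 0.634. On replicate 4 Acadvl was above it at 0.556, Acat2 near it at 0.279 and Acsx3 below it at -0.396.

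Of 127 genes of lipid metabolism in 6 lists, 86 were on the array, 36 had a value in at least 1 set and 26, the 5 genes included, were tested. Of the other 21, 0 passed by limma in either direction and in either reading, where 10.6% of all units passed in the mean of the sets and 0% in the dye-turned contrast. Of the 2027 named genes in that same fit of the mean, 148 passed. The median mean ratio of the 21 genes was -0.118, against -0.0253 for all units and -0.0655 for named genes. Of the 21, 4 had a negative value in each set and 3 a positive one. The shares were 27% and 28.5% for all units, and 28.8% and 25.7% for named genes. In the dye-turned contrast the median of the 21 was -0.0508, against -0.0218 for all units and -0.0358 for named genes.

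In the mitochondrial list 6 genes were tested, with a median of 0.0999. CG4860 had a mean of -0.499 ± 0.415 (SD, n = 3 sets; limma adjusted p = 0.165) and was negative in all 3 sets. CG4598 lay at -0.412 and Had1 at 0.194, the latter positive in all 3 sets with an SD of 0.0729. The remaining genes of the list, scu and CG9547, lay at 0.204 and 0.00533. After the position correction 4 of these genes changed sign, with means of 0.0244 for CG4860, 0.0734 for CG4598, -0.388 for Had1 and -0.146 for scu. In the dye-turned contrast CG4860 was at 0.415, CG4598 at -0.414 and Had1 at 0.0683, against -0.045 for Acadvl. Acox3 was the only tested gene of the peroxisomal list, and Acat2 the only one of the thiolase list.

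Among 7 acyl-CoA synthetases the median was -0.162. In the mean of the sets pdgy came closest to the threshold, at -0.868, -0.454 and -0.923 in the shared set and on replicates 2 and 4. Its mean was -0.748 ± 0.256 (SD, n = 3 sets; limma adjusted p = 0.0569), and after the position correction it was -0.208. Its dye-turned contrast was 0.2345, of opposite sign (limma adjusted p = 0.974). CG4830 was at -0.457 and bgm, named bubblegum and known as a very-long-chain acyl-CoA synthetase, at -0.162. After turning, 6 of the 7 synthetases, all except pdgy, had the same sign on replicates 2 and 4, 4 positive and 2 negative, where 30.6% of units did. Their contrasts ran from -0.621 for CG4830 to 0.750 for Acsf2. After the position correction 3 of the 7 did, against 38% of units.

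No gene of fatty acid synthesis or lipid storage passed in either reading, against 10.6% and 0% of all units by limma. Hacd2 was at -0.235, spidey at -0.219 and FASN1, a fatty acid synthase gene, at -0.214, and the median of the 5 tested was -0.215. In the storage and carrier list mdy, which encodes a diacylglycerol acyltransferase, was at -0.418, the lipoprotein receptor gene LpR2 at 0.264 and the lipid transfer gene Mtp at 0.312. The median of its 6 genes was -0.0631, and 0.273 in the dye-turned contrast, where the lipid carrier gene apolpp stood highest at 1.19 (unadjusted p = 0.0110, limma adjusted p = 0.967). Hacd2, spidey and FASN1 had contrasts of -0.0508, -0.209 and -0.336.

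**Figure D4:**
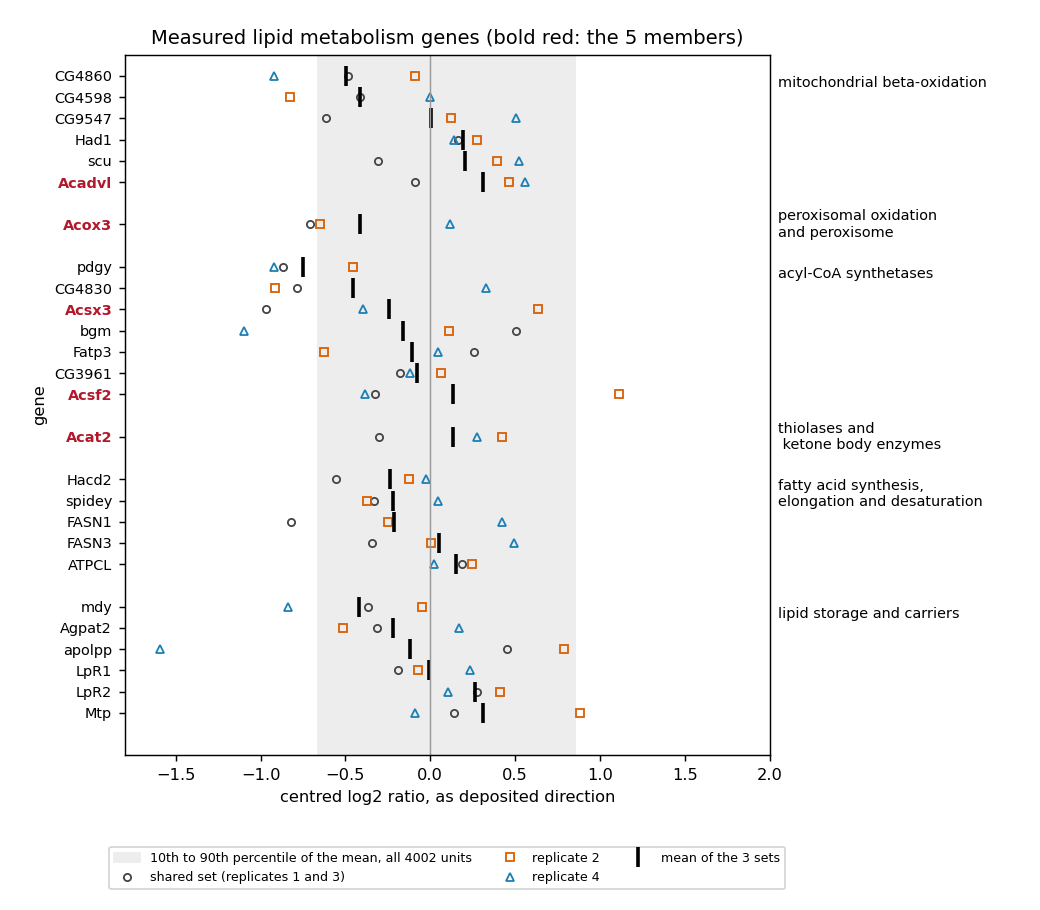
Centred log2 ratio (horizontal axis) of the 26 tested lipid metabolism genes, by list, in the 3 sets (open symbols) with their mean (black bar); the grey band holds the 10th to 90th percentile of the mean over all 4002 units. All genes except pdgy, at -0.748, have their mean inside the band.

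Markers of other tissues and cell types were measured in part. Of 11 genes listed for head fat body 4 were tested, with means from -1.63 for Yp2 to 0.764 for Fbp2. Fbp2 was past the threshold (limma adjusted p = 0.0472). Yp2 is a yolk protein gene and all pools were of males, so its value is not taken as one of fat body. The mean of Yp2 rested on replicate 4, at -4.16, with the shared set at -0.2565 and replicate 2 at -0.465, and its dye-turned contrast was 1.85. Fbp2 had a contrast of 0.00875 and, after the position correction, a mean of 0.380 (limma adjusted p = 0.1995). Of 8 glial genes 2 were tested, Gs2 at -0.722 and loco at 0.024. The 3 neuronal and photoreceptor genes tested lay between -0.341 and -0.0213, and FASN3, the 1 oenocyte gene tested, at 0.0535. Of 4 muscle genes tested, Act88F, Mlc1 and Mlc2 were negative in all 3 sets, as were 27% of all units. Their means were -0.693, -0.518 and -0.797, and Tm2 was at 0.209, none past the threshold. After the position correction Act88F was at 0.162, Mlc1 at -0.101, Mlc2 at -0.596 and Tm2 at 0.223. Of 4 gut genes, yip7 and Jon65Aiii passed at 1.56 and 1.34 (0.857 and 0.680, not past the threshold, after the position correction). The other gut genes had negative means, -0.270 for Jon65Aiv and -0.580 for Jon66Cii, the latter negative in all 3 sets. Ratios give no level, so these values do not show how much of each tissue the pools held. Their part in the values of the 5 enzymes was not tested.

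Likeness of pattern was measured as the root mean square difference of the centred log2 ratio over the 3 sets, among 2026 other named genes. Nearest to Acadvl were Mpcp1 and Trx2, at 0.0713 and 0.0715. Nearest to Acox3 were CG8675 at 0.0339 and rush at 0.0520, and nearest to Acat2 were SmydA-9 at 0.0621 and Vps37B at 0.0660. Acsf2 and Acsx3 had no such close neighbours: CG9853 and CG7214 lay at 0.216 and 0.229 from Acsf2, and CG7252 and CG17163 at 0.152 and 0.205 from Acsx3. With 3 values per gene, such nearness is a description only.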

How the data were processed

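Head RNA of 4 biological replicates was measured on two-colour cDNA arrays. Per the series' design text, images were quantified with GenePix Pro 6.0 and the authors normalized by ratio in Acuity 4.0. Spots were dropped for low intensity, saturation, bad flags, poor channel regression or low signal to noise. The authors deposited log ratios, taken here to be log2, whose base, centring and direction are not stated. Medians of replicates 1 to 4 were -0.121, -0.379, -0.179 and -0.621. Normalization by ratio leaves spot-wise dye effects and slide position in the data.

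Of 27648 spots, 15116 had 1 gene symbol, 102 several and 12430 none. Gene IDs of 14894 spots matched RefSeq genes of Release 6, which changed 0 symbols. Replicates 1 and 3 were merged, each set was centred on its median, and spots were averaged by symbol or, if unnamed, by duplicate pair. The planned fits used limma 3.58.1 in R 4.3.3 on units with all 3 sets. They were also run on simulated data with independent normal noise and no block differences, which checks the code only. The p-values cover only the spread between sets. The position correction subtracted the median of each of 48 blocks, then a robust loess surface with a span of 0.4 in blocks with 30 or more values.

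The members and gene lists were chosen with earlier results of these data known. Named besides the members were, per list, genes past the threshold and the 3 others of smallest p in the mean, and the 2 nearest genes per member; scu, CG9547, apolpp and the single markers named were added after their values were seen. No coordinates or sequences are given, since the annotation names no build. Alternatives changed centring, scaling, position, spot averaging and filters, extreme spots, identical columns, units tested, threshold, dye term and replicates.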

Additional observations from a re-analysis of the deposited data

How the results depend on the processing

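None of the 5 genes passed under any alternative of either reading, except Acox3 in the mean of the sets with quantile normalization (-0.792, limma adjusted p = 0.0435). Quantile normalization and the values as deposited moved the median of all units to -0.403 and -0.399. Relative to those medians Acox3 was at -0.389 and -0.388, and Acadvl, Acat2 and Acsf2 kept the sign they had after centring. As such they were at -0.0468, -0.253 and -0.251 with quantile normalization and at -0.0618, -0.240 and -0.239 as deposited. With 1 replicate left out the mean of Acat2 ran from -0.0113 to 0.133 and that of Acsf2 from -0.356 to 0.394, both lowest without replicate 2. Without the shared set, an alternative added after seeing the data, that of Acsx3 was 0.119. The dye-turned contrast of Acadvl was 0.0763 as deposited and 0.0679 after the position correction, and that of Acat2 was -0.109 both with all 4 columns as replicates and without replicate 3. After the position correction Acat2 minus Acsf2 was 0.109 and Acox3 minus Acsx3 was 0.465, and none of the 10 pairs could pass under any setting. The other 66 of 76 values of the mean, 62 of 66 of the contrast and 38 of 40 of the pairs kept direction and call.

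Counts of units past the threshold in the mean of the sets (425) were 0 as deposited, after the position correction and without the shared set, with 1493, 835 and 1091 at an unadjusted p under 0.05. They were 164 with scale normalization, 1353 with quantile normalization (190 positive, 1163 negative), 668 without extreme spots, 1238 with all 4 columns, 214 among named genes only and 1050 at a threshold of 0.10. Leaving out 1 replicate gave 8 to 422, the fewest without replicate 2, 64 without replicate 1 and 279 without replicate 4. The dye-turned contrast (0) gave 11 as deposited and 1 to 2 with replicate 1 or 3 left out; without replicate 2 or 4 it has no residual degrees of freedom and was not fitted. The cause of these changes was not tested. No paired analysis was possible because the 4 arrays form 1 group, beyond the pairing of treated and control pools that each ratio already holds. Acsx3, with 1 spot on replicate 2, has no value where 2 spots per set were required, and Acadvl, Acat2 and Acsx3 have none without replicate 1.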

Other observations

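Some genes of the lipid metabolism lists were measured in too few sets to be tested. On replicate 4 alone the centred log2 ratio was 0.790 for Acsx4, a synthetase gene, and -0.462 for AcCoAS, the acetyl-CoA synthetase gene. Also on that array alone, yip2, a mitochondrial thiolase gene, was at -0.210, the peroxisome gene Pex3 at 0.452 and the lipase gene Lip4 at -0.862. Desat1, a fatty acid desaturase gene, was at 0.620 in the shared set and 0.258 on replicate 2. CG6178, from the synthetase list, was at 0.076 in the shared set and 0.677 on replicate 4. Elovl7, a gene of fatty acid elongation, was at -0.170 and -0.272 in the same sets.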
